A study of Mus musculus with 768 samples.

Results

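Fos, Fosb, Jun, Junb, Egr1, Egr2, Egr3, Nr4a1, Ier2 and Btg2 are immediate early genes and are described here in single cells of mouse cochlear organoids on culture days 1, 3 and 7. They were chosen by symbol, and each symbol matched 1 row in both deposited count tables, so that 10 of the 52636 genes listed are described. All 10 passed the filter on low counts and are among the 17466 genes tested. Every group carried the same alleles, Sox2-GFP, Fgfr3-CreERT2 and Ai14-tdTomato, that is, a green reporter of Sox2, an inducible Cre under Fgfr3 and a red reporter that Cre switches on. The greater epithelial ridge (GER) is the epithelium medial to the hair cells, and its cells were enriched by flow sorting from mice on postnatal day 2 and grown as organoids. The medium was the same on all days, based on DMEM/F-12 with the supplements N-2 and B-27, ampicillin, a vitamin C derivative, 3 growth factors (EGF, FGF2, IGF1) and 3 small molecules, namely CHIR99021 (which blocks GSK3), valproic acid (which blocks histone deacetylases) and a TGF-beta receptor blocker. The labels do not say whether tamoxifen was given or which reporter set the gate. Organoids were treated with trypsin for 10 to 20 min, broken up mechanically, and cells were picked by hand for SmartSeq2, which reads whole transcripts.

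The unit of replication is the culture, a replicate number within a day: 3 cultures on day 1, 3 on day 3 and 5 on day 7. The labels do not say that the cultures came from separate animals, so p-values measure the spread between these cultures, which may be technical.

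Immediate early genes are transcribed within minutes of a signal, without new protein being made first, and their transcripts are short-lived. Growth factors and stress reach them through MAP kinases, which act on serum response factor with its ternary complex partners at CArG boxes and on CREB at cyclic AMP response elements (CRE). Fos proteins pair with Jun proteins into AP-1, Egr proteins are zinc finger factors that bind GC-rich sites, Nr4a1 is an orphan nuclear receptor, Ier2 is a small nuclear protein, and Btg2 restrains cell cycle entry. The group is known both as a readout of growth factor signalling and as a response of cells to being taken out of tissue.

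RefSeq promoter windows of GRCm38.p6, from 250 bases before to 50 bases after an annotated start, were found for 7 of the 10 genes (Fos, Fosb, Jun, Junb, Egr2, Nr4a1 and Btg2). The 5 printed here hold a match to an element of this regulation or a TATA box, in capitals, in genes whose levels differed by different amounts between days. They lie at chr12:85473640-85473939 (Fos, plus strand), chr7:19309996-19310295 (Fosb, minus strand), chr10:67537619-67537918 (Egr2, plus strand), chr15:101266596-101266895 (Nr4a1, plus strand) and chr1:134079106-134079405 (Btg2, minus strand), and each is written 5′ to 3′ on the strand of its gene.
Fos: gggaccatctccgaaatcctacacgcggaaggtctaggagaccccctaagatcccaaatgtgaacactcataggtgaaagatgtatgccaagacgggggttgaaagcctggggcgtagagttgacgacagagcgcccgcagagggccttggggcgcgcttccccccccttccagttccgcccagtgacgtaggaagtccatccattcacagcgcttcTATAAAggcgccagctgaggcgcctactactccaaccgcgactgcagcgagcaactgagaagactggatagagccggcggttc
Fosb: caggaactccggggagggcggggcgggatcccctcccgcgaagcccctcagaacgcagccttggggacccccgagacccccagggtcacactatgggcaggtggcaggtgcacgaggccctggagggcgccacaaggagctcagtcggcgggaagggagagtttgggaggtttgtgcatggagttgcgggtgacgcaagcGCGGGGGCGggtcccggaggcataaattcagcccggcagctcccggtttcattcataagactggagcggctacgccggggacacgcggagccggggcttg
Egr2: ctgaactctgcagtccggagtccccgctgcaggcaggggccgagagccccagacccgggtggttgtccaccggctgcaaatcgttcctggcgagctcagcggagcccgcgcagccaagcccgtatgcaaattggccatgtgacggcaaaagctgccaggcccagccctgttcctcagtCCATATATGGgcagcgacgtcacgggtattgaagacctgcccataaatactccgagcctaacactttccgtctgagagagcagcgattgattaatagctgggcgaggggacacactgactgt
Nr4a1: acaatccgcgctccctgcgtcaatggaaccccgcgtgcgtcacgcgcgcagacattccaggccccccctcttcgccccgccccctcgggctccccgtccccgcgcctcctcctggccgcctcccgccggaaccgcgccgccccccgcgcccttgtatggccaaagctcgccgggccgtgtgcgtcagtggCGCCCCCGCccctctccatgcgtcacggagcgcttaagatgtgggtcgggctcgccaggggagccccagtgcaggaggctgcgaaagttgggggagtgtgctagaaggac
Btg2: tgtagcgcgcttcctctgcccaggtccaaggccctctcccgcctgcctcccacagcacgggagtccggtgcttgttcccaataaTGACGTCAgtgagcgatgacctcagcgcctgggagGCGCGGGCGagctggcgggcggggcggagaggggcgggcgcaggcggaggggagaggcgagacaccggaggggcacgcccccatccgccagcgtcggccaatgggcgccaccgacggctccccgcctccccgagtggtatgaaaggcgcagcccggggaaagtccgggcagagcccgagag
With the first base of the transcript counted as 0, the capitals mark a TATA box at -33 to -28 in Fos and an EGR site at -50 to -42 in Fosb. In Egr2 they mark a CArG box at -72 to -63, and in Nr4a1 an EGR site on the other strand at -60 to -52. In Btg2 they mark a CRE at -166 to -159 and an EGR site at -131 to -123. On both strands of all 32851 RefSeq windows of this length, the EGR site GCGNGGGCG was present in 5.55%, against 3 of the 7 genes. A CArG box was present in 1.63% of windows and 1 of the 7 genes, the CRE TGACGTCA in 1.79% and 1 gene, the TATA box TATAAA in 13.6% and 2 genes (Fos and Junb), the AP-1 site TGANTCA in 7.81% and 0 genes, and the Nr4a1 element AAAGGTCA in 1.51% and 0 genes. The TATAAA match of Junb lies at 0 to 5, at and after the annotated start, unlike that of Fos. The percentages are of windows, while a gene was counted if any of its windows had a match. Egr2 had several windows. That at chr10:67535249-67535548 had no CArG box, while others besides the printed window had a match. No capital stretch overlaps another. A match is a string of letters and was not tested for function. Elements outside the windows, or with letters that differ from those searched, would be missed, so a gene without a match may still have the element.

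Filters left out 57 of the cells in the tables. A culture had 37 to 86 retained cells and 26391412 to 72483565 reads on genes, and 0 pairs of cells had identical counts. All 5 listed epithelial markers and all 8 markers of GER and tectorial membrane had reads, with summed levels of 3679.9 to 5318 CPM on day 1, 3459 to 5550.3 on day 3 and 1826 to 3130.4 on day 7 and 9525 to 13497 CPM on day 1, 3985 to 7159 on day 3 and 2172 to 4297 on day 7. Markers of hair cells, macrophages, neurons and endothelium were low: the 5 hair cell markers summed to 0 to 21.8 CPM on day 1, 10.8 to 84.4 on day 3 and 0 to 4.39 on day 7, the 5 macrophage markers to 0.265 to 3.91 CPM on day 1, 0.752 to 1.81 on day 3 and 0.262 to 1.16 on day 7, the 4 neuron markers to 11.9 to 29.8 CPM on day 1, 8.19 to 16.5 on day 3 and 3.66 to 10.8 on day 7, and 3 of the 4 endothelial markers (Pecam1, Kdr and Tie1) had no read. Supporting cell markers were higher than these: the 6 summed to 448.7 to 582.8 CPM on day 1, 345.6 to 455.3 on day 3 and 309.8 to 780.6 on day 7. Jag1 had the most reads of the 6. The 6 mesenchyme markers summed to 1474 to 1498 CPM on day 1, 966 to 1373 on day 3 and 583.997 to 2956 on day 7, nearly all from Dcn and Lum. Cells with reads of 3 or more of 6 proliferation genes are called cells with proliferation transcripts. They made up 16.5% to 23.7% of the cells of the day 1 cultures, 55.6% to 67.9% on day 3 and 25.3% to 87% on day 7.

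Of the 10 genes, 8 rose from day 1 to day 7 (edgeR adjusted p under 0.05 over all genes tested), with Egr2, Fosb and Fos rising most, and none fell. The median log2 fold change of the 10 was 2.11, against 0.00 for all genes tested, where 3.55% of genes were called higher. In 9 of the 10 every day 7 culture lay above every day 1 culture, a pattern held by 8.71% of all genes. Values per culture are CPM, the reads of a gene summed over the cells of a culture and brought by TMM factors to the same total in all libraries.

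**Figure D1:**
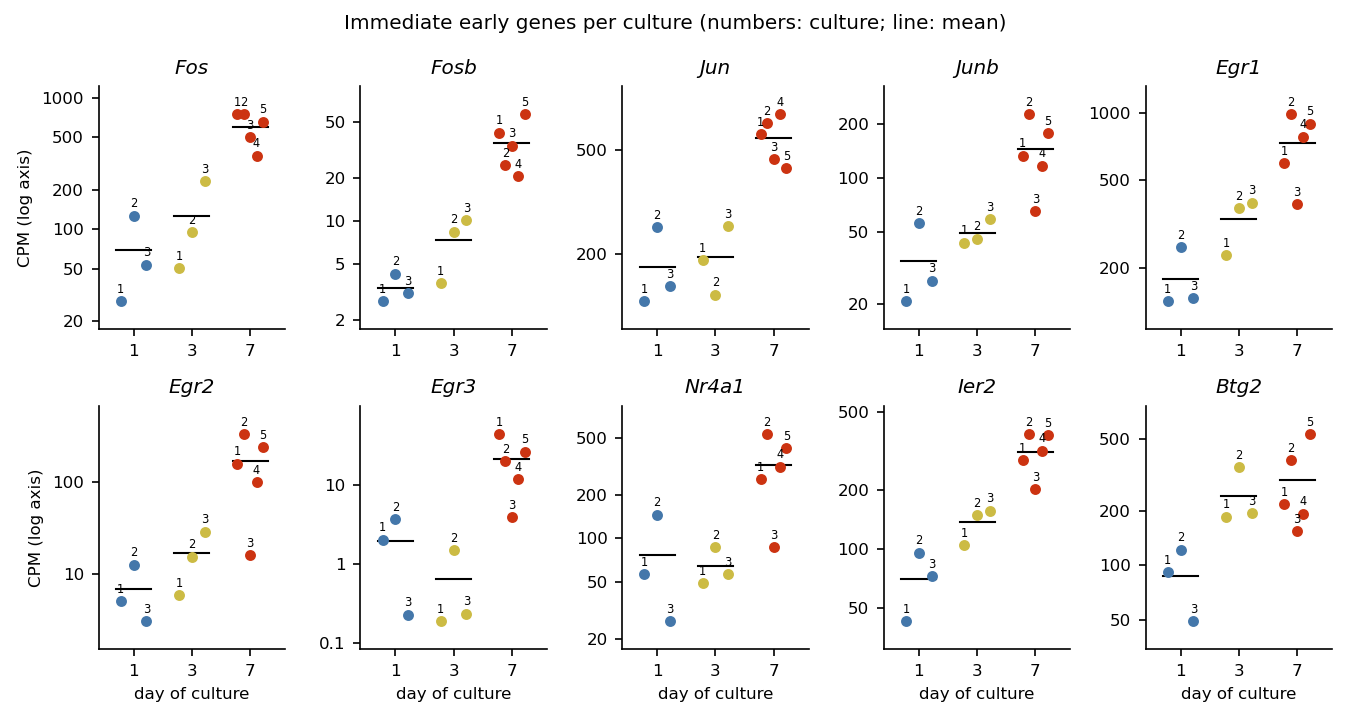
Level of each of the 10 genes in each culture, in CPM on a log axis, against the day of culture; numbers name the culture and the line is the mean of the day. The day 7 points lie above the day 1 points for every gene but Nr4a1, and day 7 culture 3 is the lowest of its day for 7 genes.

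Among the Fos genes, Fos (chromosome 12, 85473890 to 85477273, GENCODE M21, GRCm38) is the inducible partner of Jun proteins in AP-1. It stood at 28.4, 126.9 and 53.9 CPM in day 1 cultures 1 to 3, at 50.4, 94.5 and 232.7 in the day 3 cultures and at 745.9, 751.3, 498.96, 362.9 and 656.5 in day 7 cultures 1 to 5. All day 7 cultures were higher than all earlier ones, while days 1 and 3 overlapped. The rise from day 1 to day 7 was 3.11 on the log2 scale (SE 0.58, edgeR adjusted p = 0.0088). Fosb (chromosome 7, 19302696 to 19310051), which encodes a related partner of Jun, was far scarcer in reads. It stood at 2.73, 4.25 and 3.10 CPM on day 1, 3.66, 8.42 and 10.1 on day 3 and 41.7, 24.6, 33.8, 20.6 and 56.4 on day 7. Again every day 7 culture was above every earlier one, and the rise was 3.39 on the log2 scale (SE 0.46, edgeR adjusted p = 0.00223).

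Jun (chromosome 4, 95049034 to 95052222) encodes the AP-1 subunit that can bind DNA as a pair with itself or with Fos. It stood at 132.3, 253.8 and 151.5 CPM on day 1, 189.98, 140.2 and 256.1 on day 3 and 577.6, 634.7, 461.8, 687.9 and 425.9 on day 7. The day 7 cultures did not overlap with the others, and days 1 and 3 covered nearly the same range. The rise from day 1 to day 7 was 1.64 on the log2 scale (SE 0.28, edgeR adjusted p = 0.00586), the smallest of the 8. Junb (chromosome 8, 84974484 to 84978718), a Jun relative that can dampen the activity of Jun, stood at 20.7, 56.2 and 26.9 CPM on day 1, 43.7, 46 and 59.2 on day 3 and 132.6, 225.9, 65.4, 116.9 and 177.7 on day 7. All day 7 cultures were above the others, culture 3 only just, and the rise was 2.05 on the log2 scale (SE 0.41, edgeR adjusted p = 0.0134). The annotated span of Junb shares a stretch with that of Prdx2 on the opposite strand (269068 reads against 49153 for Junb). The span of Jun shares one with the antisense gene Junos, which had far fewer reads than Jun. Whether exons overlap in these stretches was not examined. The strand setting of the counting is not given in the sources used here, so reads in those stretches cannot be assigned with certainty, and the value of Junb is uncertain.

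Of the Egr genes, Egr1 (chromosome 18, 34859823 to 34864984), the founding member of the family, stood at 141.03, 248.3 and 145.2 CPM on day 1, 227.6, 370.4 and 393.7 on day 3 and 594.6, 988, 386.9, 780.4 and 895 on day 7. Day 7 culture 3 lay within the range of day 3 and the other day 7 cultures lay above it. The rise from day 1 was 2.03 on the log2 scale (SE 0.33, edgeR adjusted p = 0.00506). Egr2 (chromosome 10, 67535475 to 67542188), known for its role in Schwann cells and the hindbrain, had the largest fitted change of the 10. It stood at 5.03, 12.5 and 3.03 CPM on day 1, 5.79, 15.2 and 28.7 on day 3 and 159.004, 334.97, 15.7, 100.3 and 239.7 on day 7. Day 7 culture 3 was at the level of day 3, and the other 4 were at least 100.3 CPM. The rise from day 1 was 4.62 on the log2 scale (SE 0.94, edgeR adjusted p = 0.0138). The 4 Schwann cell and glia markers, most of whose reads are from Sox10, summed to 53.8 to 72.4 CPM on day 1, 43.7 to 62.6 on day 3 and 77.9 to 93.5 on day 7; their part in this result was not tested.

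Egr3 (chromosome 14, 70077203 to 70082614), a further zinc finger factor of this family, was the scarcest of the 10. It stood at 2.00, 3.65 and 0.227 CPM on day 1, 0.188, 1.49 and 0.233 on day 3 and 43.6, 19.6, 3.88, 11.7 and 26.1 on day 7. All day 7 cultures were above all earlier ones, culture 3 by a narrow margin. The difference to day 1 did not pass, at 3.40 on the log2 scale (SE 1.02, edgeR adjusted p = 0.0641), but passed when day 3 culture 2 was left out. It rests on few reads before day 7, 100 over the day 3 cultures against 4971 over those of day 7.

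Nr4a1, the nuclear receptor also called Nur77, stood at 56.7, 146.01 and 26.8 CPM on day 1, 49.3, 86.9 and 56.8 on day 3 and 258.1, 530.4, 87, 313.9 and 424.3 on day 7. It is the only one of the 10 in which days 1 and 7 overlapped, since day 1 culture 2 was above day 7 culture 3. The difference did not pass, at 2.07 on the log2 scale (SE 0.59, edgeR adjusted p = 0.0528), but passed when day 1 culture 2 or day 7 culture 3 was left out. Its identifier version is not in GENCODE M21, so no position of the gene is given.

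Ier2 (chromosome 8, 84661331 to 84662852) stood at 43.2, 96.1 and 73.1 CPM on day 1, 105.1, 148.7 and 156.9 on day 3 and 283.5, 385.6, 202.3, 316.6 and 379.2 on day 7. The 3 days did not overlap at all, and the rise from day 1 to day 7 was 2.15 on the log2 scale (SE 0.30, edgeR adjusted p = 0.00243). Btg2 (chromosome 1, 134075170 to 134079120), a target of p53 that slows the cell cycle, stood at 91.2, 121.9 and 49.2 CPM on day 1, 185.5, 346.7 and 193.3 on day 3 and 217.2, 378.8, 154.4, 192.7 and 530.2 on day 7. Both later days lay above day 1 and overlapped with each other, and the rise from day 1 to day 7 was 1.75 on the log2 scale (SE 0.44, edgeR adjusted p = 0.0326). Btg2 had the smallest fitted difference between days 3 and 7 of the 10.

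The calls of Fos, Fosb, Jun, Egr1 and Ier2 held without any 1 of the 11 cultures. Those of Junb and Egr2 were lost without day 1 culture 1 or 3, and that of Btg2 without any 1 day 1 culture or day 7 culture 2, so that 5 genes were called without day 1 culture 1 or without day 1 culture 3. The deposited files each hold cultures of all days: within the first, with 1 day 1 and 4 day 7 cultures, and within the second, with 2 and 1, all day 7 values were above all day 1 values for 10 of the 10 genes, a pattern held by 26.6% and 36.4% of all genes. With so few cultures edgeR called 0 and 4 of the 10 within the files.

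**Figure D2:**
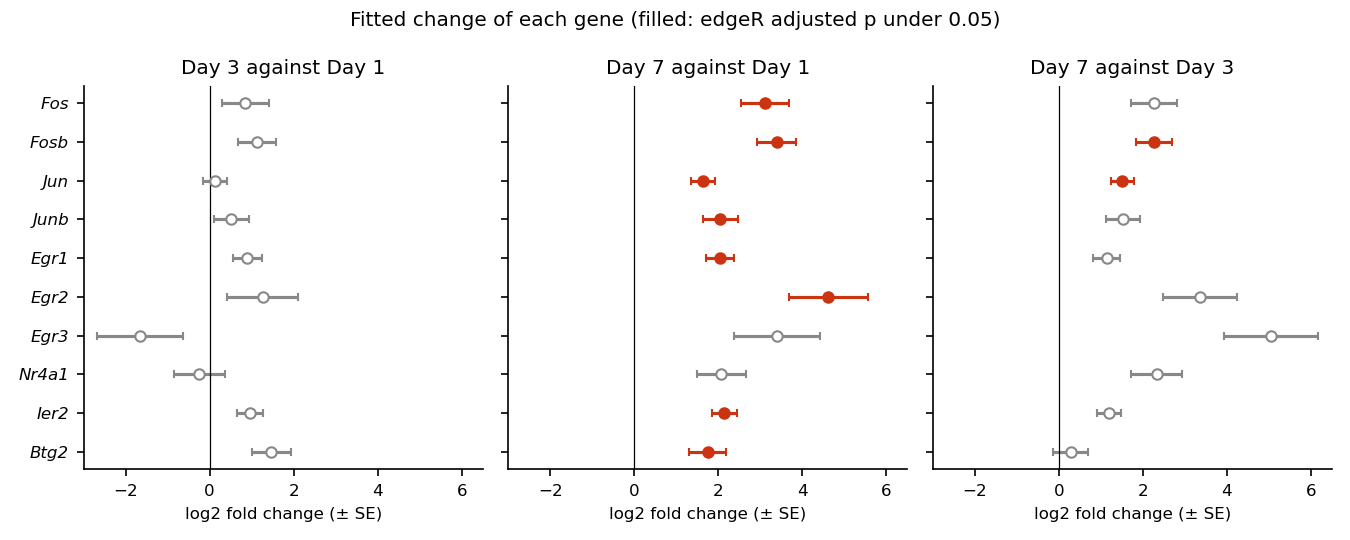
Fitted log2 fold change of each gene with its standard error in the 3 comparisons; filled points have an edgeR adjusted p under 0.05. Of the 10 genes none is filled between days 1 and 3, 8 are between days 1 and 7, and 2 are between days 3 and 7.

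Between days 1 and 3 none of the 10 genes was called, in edgeR as in DESeq2. In edgeR 0.0115% of all genes were called, and 4 of the 10 (Fosb, Egr1, Ier2 and Btg2) had an unadjusted p under 0.05, as did 5.69% of all genes in the higher direction. The fitted values were above 0 for 8 genes and below 0 for Egr3 and Nr4a1, with a median of 0.87. Ier2 and Btg2 were higher in every day 3 culture than in every day 1 culture, a pattern held by 9.88% of all genes. The fit gave a log2 difference of 1.47 (SE 0.47, edgeR adjusted p = 0.351) for Btg2 and a log2 difference of 0.95 (SE 0.31, edgeR adjusted p = 0.359) for Ier2.

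Between days 3 and 7 the fitted values of all 10 genes were above 0, with a median of 1.90, and 2 genes were called, Fosb and Jun, where 0.183% of all genes were called higher. Fosb rose with a log2 difference of 2.26 (SE 0.43, edgeR adjusted p = 0.031). Jun rose with a log2 difference of 1.51 (SE 0.27, edgeR adjusted p = 0.0268). In 7 of the 10 every day 7 culture lay above every day 3 culture, a pattern held by 2.99% of all genes. The exceptions were Egr1, Egr2 and Btg2. Next came Egr3 with a log2 difference of 5.05 (SE 1.13, edgeR adjusted p = 0.0603), which did not pass. Fos had a log2 difference of 2.26 (SE 0.55, edgeR adjusted p = 0.0843). Ier2 had a log2 difference of 1.20 (SE 0.28, edgeR adjusted p = 0.0768), and neither passed. For Btg2 the fit gave a log2 difference of 0.29 (SE 0.41, edgeR adjusted p = 0.897). The number of calls depended on single cultures and on the method: 0 genes were called without day 3 culture 1, day 3 culture 2 or day 7 culture 1, 7 were called without day 7 culture 3, and DESeq2 called 9. Days 3 and 1 are both compared with the same day 7 cultures, so these comparisons are not independent.

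Levels of different genes were compared only per kilobase of exon. For Nr4a1, whose identifier version is not in GENCODE M21, the exon length is that of another version, so its place is less certain. On day 1 the mean order was Jun at 56.2 ± 20.5 CPM per kilobase, Ier2 at 46.5 ± 17.4, Egr1 at 39.7 ± 13.5, Btg2 at 31.9 ± 13.3, Fos at 29.6 ± 21.7, Nr4a1 at 21.8 ± 17.7 and Junb at 15 ± 8.25 (SD, n = 3). The ranges of all neighbours in this order down to Junb overlapped. Egr2, Fosb and Egr3 were under all of these, at 2.01 ± 1.47, 0.539 ± 0.127 and 0.445 ± 0.389 CPM per kilobase (SD, n = 3). On day 3 Ier2 stood first, at 89.9 ± 18.3 CPM per kilobase (SD, n = 3), with overlapping ranges of Btg2 at 88.2 ± 33.1, Egr1 at 73.7 ± 20.1, Jun at 61.3 ± 18.2 and Fos at 53.5 ± 40.4. On day 7 Fos stood first, at 256.4 ± 71.7 CPM per kilobase (SD, n = 5), before Ier2 at 205.9 ± 49.6, Jun at 174.8 ± 35 and Egr1 at 162.6 ± 53.8. The ranges of every pair of neighbours overlapped on day 7, so the order of neighbours is not fixed by these cultures. Fosb and Egr3 were again last.

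The make-up of the AP-1 transcripts per kilobase also differed between days. Fos made up 55.2%, 89.4% and 94.6% of the sum of Fos, Fosb, Fosl1 and Fosl2 in day 1 cultures 1 to 3, and 97.5%, 98.4%, 97.1%, 97.3% and 96.3% in day 7 cultures 1 to 5. The day 7 cultures were all above the day 1 cultures, though day 1 culture 3 came close. Fosl1, a Fos relative without a strong activation domain, made up 28.8% and 7.88% in day 1 cultures 1 and 2, had no read in culture 3 and made up at most 0.315% on day 7. The sum of the Fos family divided by that of Jun, Junb and Jund was 0.380 to 0.543 on day 1, 0.337 to 0.926 on day 3 and 0.585 to 1.35 on day 7. Day 7 did not overlap with day 1 in this ratio, and Jun remained the largest part of the Jun family in every culture, between 62.4% and 82%. These shares were not tested.

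In single cells, each thinned to 200000 reads, more cells carried a read of these genes on day 7. The share of cells with a read rose for 10 of the 10 genes from day 1 to day 7 (limma on the log2 odds per culture, adjusted p under 0.05), where 2.32% of all genes were called higher. Between days 1 and 3 limma called 0 of the 10, with 0.0573% of all genes called higher. Between days 3 and 7 limma called 6 (Fos, Fosb, Egr1, Egr2, Egr3 and Ier2), with 0.366% of all genes called higher. In percentage points the mean shares of Fos, Fosb, Egr2 and Egr3 differed most, and these started lowest. Fos was read in 36.5%, 51.8% and 31.6% of the cells of day 1 cultures 1 to 3, in 56%, 50% and 72.2% of those of day 3 and in 97.4%, 100%, 79.7%, 89.7% and 94.7% of those of day 7 cultures 1 to 5. Days 1 and 3 overlapped and day 7 was above both. Fosb was read in 9.62%, 12.9% and 18.4% of the cells on day 1, 14.3%, 22.7% and 27.8% on day 3 and 66.7%, 67.6%, 72.5%, 55.1% and 73.3% on day 7. Egr2 was read in 9.62%, 18.8% and 7.89% on day 1, 13.1%, 25.8% and 20.8% on day 3 and 87.2%, 86.5%, 21.7%, 60.3% and 84% on day 7. In day 7 culture 3 the share of Egr2 was within the range of day 3, and in the other 4 it was far above. Egr3 was read in 7.69%, 10.6% and 5.26% on day 1, 1.19%, 4.55% and 5.56% on day 3 and 61.5%, 40.5%, 13%, 28.2% and 40% on day 7.

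**Figure D3:**
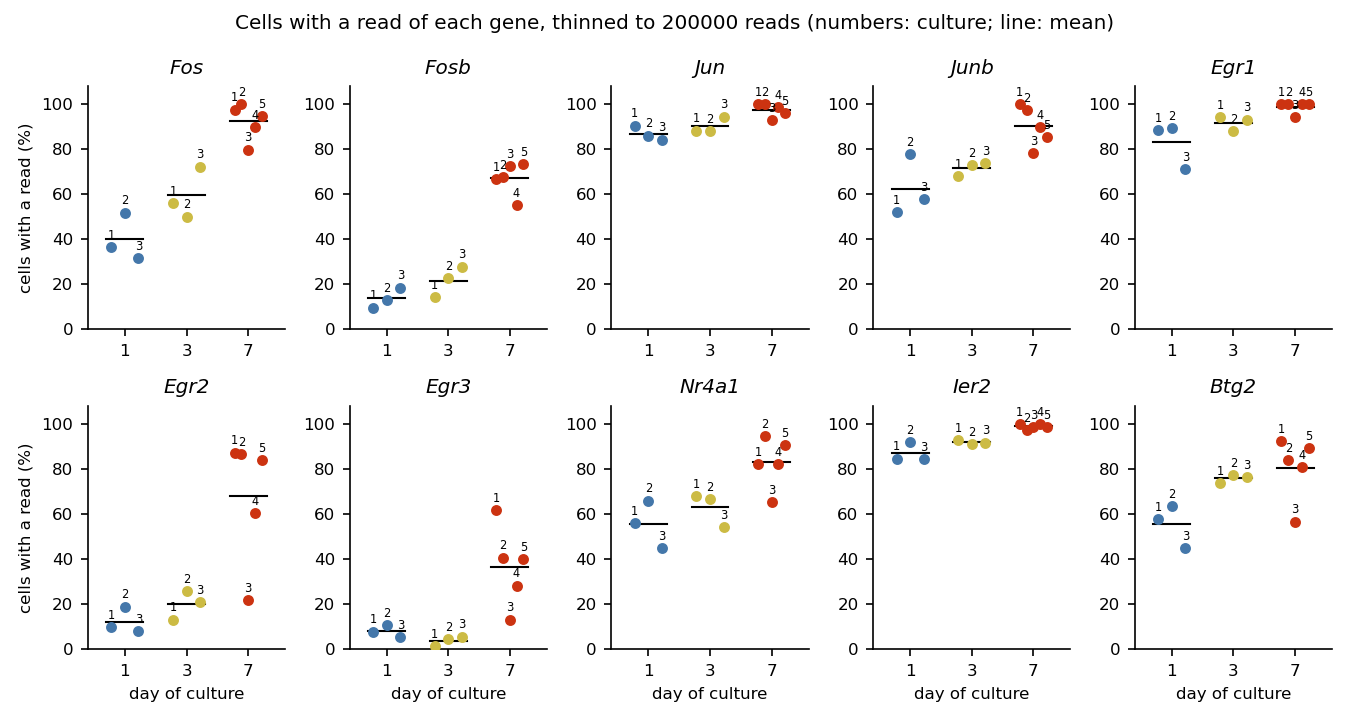
Percent of cells with at least 1 read of each gene after thinning to 200000 reads, in each culture, against the day of culture; numbers name the culture and the line is the mean of the day. Jun, Egr1 and Ier2 are read in most cells on every day, while Fosb, Egr2 and Egr3 go from at most 18.8% on day 1 to as much as 87.2% on day 7.

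Jun, Egr1 and Ier2 were read in most cells on every day. For Jun the share was 90.4%, 85.9% and 84.2% on day 1 and 100%, 100%, 92.8%, 98.7% and 96% on day 7, and for Ier2 84.6%, 91.8% and 84.2% and 100%, 97.3%, 98.6%, 100% and 98.7%. The ranges of Jun and Ier2 on these days are close to the ceiling, so that the share has little room to differ. Egr1 was read in 71.1% to 89.4% of cells on day 1 and 94.2% to 100% on day 7. Junb was read in 51.9% to 77.6% and in 78.3% to 100%. For Nr4a1 the ranges were 44.7% to 65.9% and 65.2% to 94.6%, and for Btg2 they were 44.7% to 63.5% and 56.5% to 92.3%. Nr4a1 and Btg2 overlapped between these days through day 7 culture 3. Without thinning, over all retained cells, the mean share of Fos was 46.9%, 61.3% and 93.3% on days 1, 3 and 7, that of Fosb 14.5%, 25.3% and 73.8%, that of Egr2 15.6%, 23.6% and 70.9%, and that of Egr3 8.18%, 5.45% and 41.6%. The order of the days was as after thinning.

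Cells with a read also carried more reads. Among positive cells the mean log2 read number rose for 8 of 9 genes from day 1 to day 7 (limma, adjusted p under 0.05), where 4.26% of the 10591 genes tested were called higher; Egr3 had too few positive cells for this test. For Fos the difference was 2.27 (log2, SE 0.31, limma adjusted p = 0.000439), for Egr1 2.07 (SE 0.39, limma adjusted p = 0.00493) and for Ier2 2.10 (SE 0.24, limma adjusted p = 0.000152). Btg2 did not pass, with a difference of 0.98 (SE 0.40, limma adjusted p = 0.163). Between days 3 and 7 Fos, Jun and Ier2 passed, where 0.227% of genes were called higher, and between days 1 and 3 none of the 9 did, where 0.0189% were called higher. Without day 1 culture 3, limma called 5 of the 10 genes for the share and 5 of the 9 for the level between days 1 and 7, and without day 1 culture 1 it called 5 for the level.

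The reads of the scarce genes came from few cells on day 1 and from more on day 7. The 10% of cells with most Egr2 reads carried between 88.6% and 100% of them in the day 1 cultures and between 31% and 75.3% in the day 7 cultures. For Fosb these shares were 85.7% to 100% and 36% to 58.3%. For Ier2, read in most cells on every day, they were 24.4% to 33.9% and 23.3% to 31.3%, so that its spread over cells differed little. On day 1 Egr2 was read in 7.89% to 18.8% of cells and Fosb in 9.62% to 18.4%. Where under 10% of cells had a read, the top 10% had to carry all reads, so these values partly restate the share of cells. The median cell of a culture carried 0 to 5.00 CPM of Fos on day 1 and at least 230 CPM on day 7, with a median over the 5 cultures of 340 CPM. The highest single cell reached 2155 CPM of Fos on day 1 and 6180 on day 7.

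The number of these genes read per cell was higher in the day 7 cultures. A cell had reads of a mean of 5.04 ± 0.60 of the 10 genes on day 1, against 5.88 ± 0.20 on day 3 and 8.13 ± 0.87 on day 7 (SD over 3, 3 and 5 cultures). At least 5 of the 10 at 100 CPM or more were seen in 7.69%, 21.2% and 5.26% of the cells of day 1 cultures 1 to 3. The day 3 cultures had 10.7%, 25.8% and 20.8%, and the day 7 cultures 79.5%, 86.5%, 33.3%, 75.6% and 86.7%. All day 7 cultures were above all earlier ones, culture 3 by far the least. None of the 10 reached that level in 9.41% to 28.8% of the cells of a day 1 culture, 2.78% to 15.5% on day 3 and 0% to 5.80% on day 7. Only 1 thinned cell had no read of any of the 10, and it was a day 1 cell.

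Within a culture the genes tended to vary together from cell to cell. Over cells, the Spearman correlation between 2 of the 10 genes, taken as the median over the 11 cultures, was above 0 for 45 of 45 pairs, with a median of 0.23. Pairs among other genes were not measured, so this count has no background. The cells of a culture share its preparation and all were thinned to 1 depth, and the values are descriptions. The highest was that of Fos with Egr1 (0.48, from 0.25 to 0.73 over the cultures), followed by Fos with Junb (0.42) and Fos with Fosb (0.41). The lowest was that of Fosb with Egr3 (0.03, from -0.34 to 0.24 over the cultures), both scarce. In single cultures other pairs also fell below 0, such as Fosb with Nr4a1 (-0.23) and Junb with Egr2 (-0.18). The median over the pairs was 0.19 on day 1, 0.17 on day 3 and 0.28 on day 7. The sum of the 10 genes had a median correlation of 0.18 with the reads of the cell before thinning and of -0.15 with its mitochondrial share. Both differed in sign between days: the medians were 0.19, 0.24 and -0.17 for the reads of the cell and -0.39, -0.15 and 0.10 for the mitochondrial share on days 1, 3 and 7.

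Likeness to Fos was then measured for all genes. Over cells (median Spearman correlation over the 11 cultures, 9670 genes), Egr1, Junb, Fosb and Jun were the 4 genes most like Fos, Nr4a1 stood 6th and Ier2 8th, while Egr2 stood 22nd and Btg2 82nd. The 5 other genes most like Fos were Cyr61 (0.34), a secreted matrix protein and itself an immediate early gene, Tapbp (0.32), which helps to load peptides on MHC class I, the phosphatase subunit Ppp1r15a (0.29), the mRNA decay factor Zfp36 (0.29) and the matrix protein Sparcl1 (0.28). Over the 11 culture sums (Pearson correlation of log2 CPM, which includes the difference between days), Fosb stood 3rd counting Fos itself, Ier2 9th and Btg2 1266th. There the 5 other genes most like Fos were Psmb8 (0.95), Dhrs3 (0.95), Psmb9 (0.94), Bpgm (0.94) and Zfp422 (0.94). Psmb8 and Psmb9 are subunits of the immunoproteasome, Dhrs3 reduces retinal and Bpgm makes bisphosphoglycerate.

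Cells with and without proliferation transcripts were set side by side, since their proportion was not the same in all cultures. Cells with reads of 3 or more of the 6 genes Tpx2, Ccnb2, Birc5, Cdk1, Top2a and Mki67 were taken as proliferating. The other cells, called cells without proliferation transcripts, could still have reads of fewer than 3 of the 6. The summed level of the 10 genes was lower in the proliferating cells in 11 of 11 cultures, at 0.385 to 0.849 of that in the other cells (median 0.675). Nr4a1 and Btg2 were lower in 11 of 11 cultures, with median ratios of 0.538 and 0.388, and Jun and Egr1 in 10 of 11. Ier2 was lower in 5 of 11, with a median ratio of 1.01, and Egr3 in 4 of 11. Egr3 had no ratio in day 3 cultures 1 and 2 and day 7 culture 3, whose other cells had no read of it. On days 1 and 3 its means were at most 3.38 CPM in either kind of cell, so its count is not comparable with the others. Cells of 1 culture are not replicates, and these ratios were not tested. The same ratios were not measured for all genes, so the counts of cultures have no background.

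**Figure D4:**
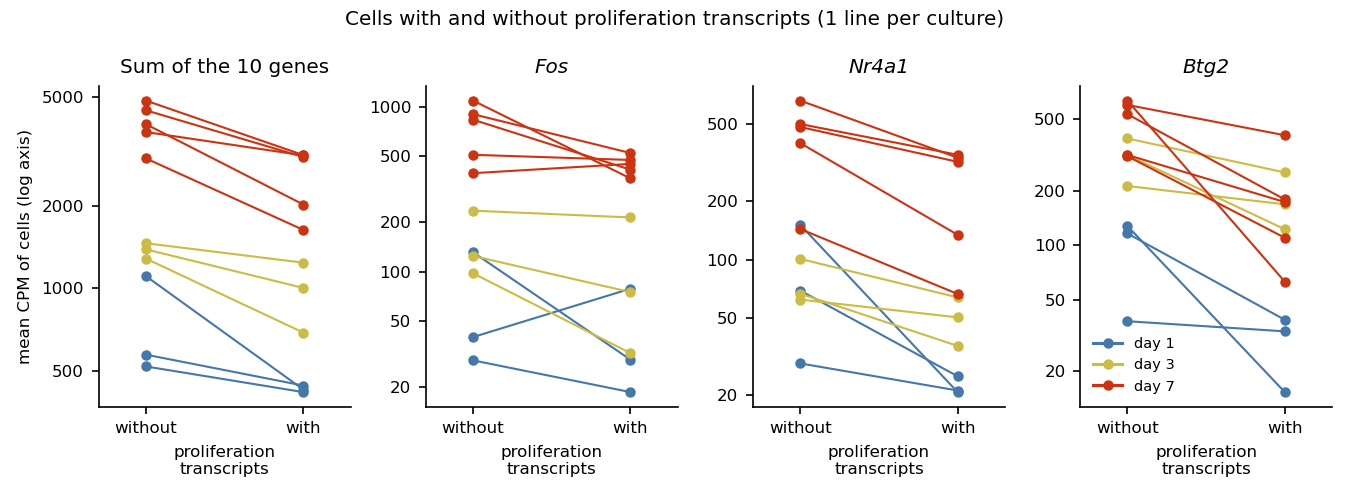
Mean CPM over cells without and with proliferation transcripts, on a log axis, with 1 line per culture coloured by day, for the sum of the 10 genes, Fos, Nr4a1 and Btg2. The lines of the sum, Nr4a1 and Btg2 fall in 11 of 11 cultures, those of Fos in 9 of 11, and the day 7 lines of the sum lie above all others.

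Btg2 stood at 116.2, 127.9 and 37.9 CPM in the other cells of day 1 cultures 1 to 3 and at 38.6, 15.4 and 33.3 in the proliferating ones. On day 7 these values were 311.4, 532.2, 632.8, 316.2 and 598.8 and 110, 179.3, 62.8, 173.4 and 406.6 in cultures 1 to 5. In each culture the proliferating cells were lower, and in both kinds of cell all day 7 cultures were above all day 1 cultures. The difference between the kinds was largest in day 7 culture 3, at 632.8 against 62.8 CPM. Nr4a1 stood at 399.4, 661.7, 143.9, 483.5 and 500.7 CPM in the other cells and at 134.3, 335.7, 66.5, 319.7 and 347.6 in the proliferating cells of day 7 cultures 1 to 5.

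The rise from day 1 to day 7 was seen in both kinds of cell. Fitted on the cells without proliferation transcripts, edgeR called 7 of the 10 genes (all of the 8 but Junb), where 0.47% of genes were called higher. On the proliferating cells, an analysis added after the data were seen, edgeR called 10 of 10, where 1.97% of genes were called higher. The rise of Fos was 3.31 (log2, SE 0.58, edgeR adjusted p = 0.0182) in the former and 3.36 (SE 0.56, edgeR adjusted p = 0.00546) in the latter, and that of Egr2 was 5.04 (SE 0.98, edgeR adjusted p = 0.0308) and 4.06 (SE 0.79, edgeR adjusted p = 0.0137). The difference between the kinds of cell was not tested. Some cell numbers were small. Day 1 cultures 1 to 3 had 11, 14 and 9 proliferating cells, and day 7 culture 3 had 9 of the other cells. Between days 3 and 7 edgeR called 3 genes (Fosb, Jun and Egr1) in the cells without proliferation transcripts, where 0.144% were called higher, and 0 of the 10 in those with them, where 0.00672% were called higher.

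Within a day, single cultures stood high or low for most of the 10 genes at once. On day 1, culture 2 was the highest for 10 of the 10 genes. On day 3, culture 1 was the lowest for 9 and culture 3 the highest for 7. On day 7, culture 3 was the lowest for 7 and culture 2 the highest for 6. Egr2 spread most on day 7, with 21.3 times between the lowest and the highest culture, and Jun least, with 1.62 times. Day 7 culture 3 had proliferation transcripts in 87% of its cells, the highest of the 5, beside 74.4%, 53.8%, 37.8% and 25.3% in cultures 4, 1, 2 and 5. The sum of the 10 genes over thinned cells was 1813 CPM in culture 3, beside 3237, 2931, 4186 and 4113 in the same order. Within the cells without proliferation transcripts culture 3 was the lowest for the sum as well, at 2988 CPM over 9 cells, against 3731 to 4863 in the others.

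Lists of related genes had medians nearer to 0 than that of the 10, or below it. Of 36 other immediate early genes tested between days 1 and 7, 2 rose and none fell, with a median log2 fold change of -0.03. Over all genes 3.55% were called higher and 3.56% lower, so 2 calls in a list of this size are near the background. Cyr61 rose from 245.3 ± 122.3 to 2154 ± 977 CPM (a difference of 3.13 in log2 with SE 0.45, edgeR adjusted p = 0.00283). Arc, known for its role at synapses, rose from 10.8 ± 5.19 to 127.2 ± 62.2 CPM (a difference of 3.56 in log2 with SE 0.62, edgeR adjusted p = 0.00699). Atf3, a stress-induced repressor that pairs with Jun, stood at 75.5 ± 32 and 249.8 ± 143.6 CPM and did not pass (a difference of 1.73 in log2 with SE 0.49, edgeR adjusted p = 0.0515). The family members Egr4, Nr4a2 and Nr4a3 were not called either, with mean levels of at most 11.6 CPM on any day.

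**Figure D5:**
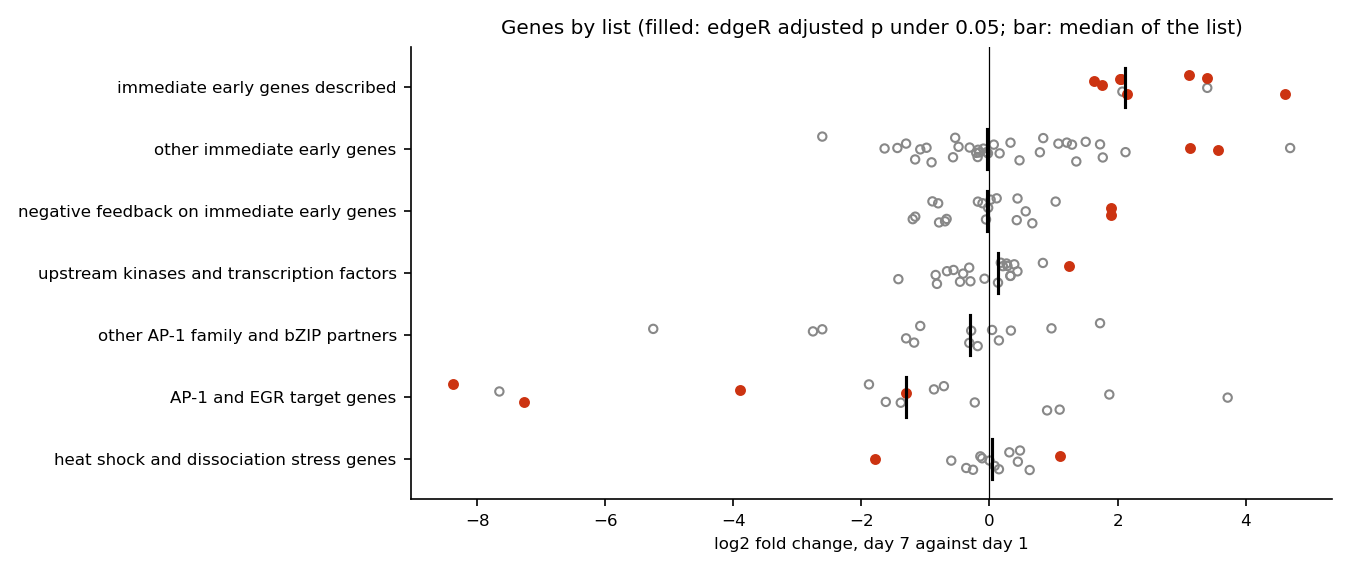
Fitted log2 fold change of day 7 against day 1 of every tested gene of the 10 and of 6 lists of related genes; filled points have an edgeR adjusted p under 0.05 and the bar is the median of a list. A gene that is in several lists is drawn in each of them. The 10 genes lie between 1.64 and 4.62, while the medians of the lists lie between -1.30 and 0.13.

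Of 20 genes of negative feedback on this response, 2 rose and none fell (median -0.04), where 3.55% of all genes were called higher. Spry1, an inhibitor of growth factor signalling, rose from 41 ± 2.66 to 153.1 ± 23.7 CPM (a difference of 1.90 in log2 with SE 0.19, edgeR adjusted p = 0.000379), and Zfp36, which binds AU-rich transcripts and speeds their decay, rose from 13.6 ± 5.41 to 50.6 ± 31 CPM (a difference of 1.89 in log2 with SE 0.50, edgeR adjusted p = 0.039). Crem, whose inducible form represses CREB targets, did not pass (a difference of -1.16 in log2 with SE 0.48, edgeR adjusted p = 0.162). Dusp1, a phosphatase of MAP kinases and often induced with Fos, stood at 239.95 ± 117.7 CPM on day 1 (SD, n = 3) and 242.9 ± 146.4 on day 7 (n = 5); it is named after its values were seen. Of 21 kinases and transcription factors upstream, 1 rose (median 0.13), near the 3.55% of all genes called higher: Atf1, a relative of CREB, went from 13.1 ± 0.360 to 31.1 ± 9.86 CPM (a difference of 1.25 in log2 with SE 0.30, edgeR adjusted p = 0.029). The kinase Mapk3 (a difference of -0.84 in log2 with SE 0.32, edgeR adjusted p = 0.127) and the ternary complex factor Elk3 (a difference of -1.42 in log2 with SE 0.59, edgeR adjusted p = 0.162) did not pass.

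Of 14 other AP-1 family and partner genes, none was called (median -0.30). Fosl1, Fosl2 and Atf3 among them are also in the list of other immediate early genes, so the lists overlap. In edgeR 4 of the 14 had an unadjusted p under 0.05, namely Fosl1, Fosl2, Atf3 and Maf, as did 23.6% of all genes. Fosl2 stood at 15.7 ± 12.1 and 6.35 ± 2.64 CPM (a difference of -1.30 in log2 with SE 0.50, edgeR adjusted p = 0.13), and Maf had at most 1.18 CPM on average on any day (a difference of -5.25 in log2 with SE 1.76, edgeR adjusted p = 0.0907). Of 15 genes known as targets of AP-1 or Egr proteins, none rose (median -1.30), and Sprr1a, Plaur and Hbegf were among those that fell, where 3.56% of all genes were called lower. Sprr1a, a cornified envelope protein, went from 105.5 ± 32.2 to 0.294 ± 0.440 CPM (a difference of -8.37 in log2 with SE 0.95, edgeR adjusted p = 0.00103). Plaur, the urokinase receptor, went from 17.9 ± 9.14 to 1.20 ± 0.449 CPM (a difference of -3.90 in log2 with SE 0.52, edgeR adjusted p = 0.00193), and the growth factor Hbegf from 35.4 ± 3.87 to 14.3 ± 3.38 CPM (a difference of -1.30 in log2 with SE 0.24, edgeR adjusted p = 0.0088).

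Of 14 heat shock and dissociation stress genes, 1 rose and 1 fell (median 0.04), where 3.55% of all genes were called higher and 3.56% lower. Hspa5, a chaperone of the endoplasmic reticulum, rose from 1308 ± 193.4 to 2816 ± 432.1 CPM (a difference of 1.11 in log2 with SE 0.17, edgeR adjusted p = 0.00371), and the small heat shock protein Hspb1 fell from 36.8 ± 15.6 to 10.6 ± 5.72 CPM (a difference of -1.79 in log2 with SE 0.40, edgeR adjusted p = 0.0199). Hspa8, the constitutive cytosolic chaperone, did not pass (a difference of 0.48 in log2 with SE 0.17, edgeR adjusted p = 0.103). The inducible Hspa1a and Hspa1b had means of at most 3.78 CPM on every day. The median share of mitochondrial reads of a cell was 2.72% to 4.18% in the day 1 cultures, 3.23% to 4.46% on day 3 and 3.90% to 6.76% on day 7, and the part of dissociation and of cell quality in the differences of the 10 genes between days was not tested. Over cells of a culture, the sum of the 10 genes had a median correlation of 0.07 with the sum of the heat shock list, of 0.38 with that of the other immediate early genes and of 0.32 with that of the feedback genes.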

How the data were processed

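Members and gene lists were chosen with earlier results of these data known. Per the submitters' processing notes, the authors used STAR 2.5.3a and RSEM 1.3.0 with mm10 and GRCm38; the annotation release is not given in the sources used here. The authors deposited RSEM's expected counts, which are not normalized, for every gene in every cell, in 2 files of different cultures; 10.6% of the values above 0 were not whole. Values were rounded. Spike-in sequences and transgenes were left out of library sizes.

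Cells under 50000 reads, under 1500 genes or over 20% mitochondrial reads were left out, 57 of 768. Cells were picked by hand and no doublet caller was run. Reads were summed per culture and tested with edgeR 4.0.16 (R 4.3.3, TMM, filterByExpr, quasi-likelihood F-test, 1 fit over 11 cultures with day as the term, Benjamini-Hochberg adjustment over all genes tested). Shares of cells and levels in positive cells were tested with limma 3.58.1 on cells thinned to 200000 reads, as log2 odds (0.5 added to both counts) and as mean log2 reads (genes with at least 3 positive cells in every culture). Scripts were tested on simulated data. Reads carry no molecular identifiers. A result was recomputed with other normalization, filters, cells, tests (DESeq2 1.42.0, limma on mean CPM with a pseudocount of 1), by file and without each culture.

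Named genes were the 10 members, the 3 genes of each list with the smallest adjusted p between days 1 and 7, and the 5 most like Fos over cultures and over cells. Egr4, Nr4a2, Nr4a3, Dusp1, Fosl1, Hspa1a and Hspa1b are named outside this rule, after their values were seen. The result of 1 gene of the lists is not reported here.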

Additional observations from a re-analysis of the deposited data

Results flagged for a closer look

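The 5 day 7 cultures were searched for a culture far from the others, in 40 groups of values (4 measures for each of the 10 genes); chance alone marks about 1 group in 20. A culture was marked where its gap to the nearest other, divided by the range of the 5, was above 0.71. The share of cells with at least 100 CPM of Fosb was 24% in day 7 culture 5, against 5.41% to 10.3% in the other 4. Egr1 had a read in 94.2% of the cells of day 7 culture 3, against 100% in each of the others; with the other 4 tied at the ceiling any lower value is marked, and the rate of 1 in 20 does not apply to it. The share of cells with at least 100 CPM of Egr1 was 66.7% in that culture, against 97.4% to 100%. For Ier2 it was 68.1% in the same culture, against 87.2% to 89.7%. Day 7 culture 3 was also the culture of its day with the highest share of cells with proliferation transcripts, 87%; the part of these cells in the 3 values was not tested.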

How the results depend on the processing

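Between days 1 and 7, edgeR called 8 of the 10 genes, and 7 to 10 under each alternative that kept at least 10 cultures, other than leaving out day 1 culture 1 or 3. It called 0 with the first file alone and 4 with the second, and 5 to 9 without single cultures. Between days 3 and 7 it called 2, against 4 without a filter on low counts, 8 with at least 10 CPM in 3 cultures (Fosb and Egr3 among them, which pass this filter only through day 7), 9 with DESeq2, 4 with limma on mean CPM per cell, 5 on thinned cells, 0 in cells with proliferation transcripts, 1 with only the cultures of these 2 days and 0 within either file. Leaving out single cultures gave 0 to 7. For the share of cells these ranges were 5 to 10 (days 1 and 7) and 2 to 9 (days 3 and 7), and for the level 5 to 8 and 1 to 7. With a threshold of 100 CPM the share of 1 gene was called between days 1 and 3. Causes were not tested. With the replicate number as a block, 1, 10 and 1 genes were called for day 3 against 1, 7 against 1 and 7 against 3, and 5 for the level between days 1 and 7. Deviations of same-numbered cultures correlated at -0.01 to 0.06 over genes (mean 0.03, against -0.01 for other pairs), under 0.1 throughout; the labels do not say whether a number links cultures, and no pairing was assumed. No called gene changed sign. The sign of uncalled values turned as follows (log2). Nr4a1, day 3 against 1: 1.20 in cells with proliferation transcripts, 0.12 with the replicate block and -0.65 to 0.63 without single cultures; its level 0.067 at 100000 reads per cell and -0.38 to 0.068 without single cultures. Jun, day 3 against 1: -0.054 in the second file and -0.11 to 0.47 without single cultures (-0.10 without day 1 culture 1); its level -0.012 to 0.53. Level of Egr2, day 3 against 1: -0.14 to 0.89 without single cultures. Btg2, day 7 against 3: -0.29 in cells with proliferation transcripts, -0.0025 with the replicate block and -0.037 to 0.64 without single cultures; its level -0.24 with the replicate block and -0.22 to 0.39 without single cultures. The median of all genes moved by at most -0.10 to 0.06 under any setting. Of all genes tested, 0% to 1.48%, 0.0794% to 13.3% and 0% to 3.66% were called under the alternatives for day 3 against 1, 7 against 1 and 7 against 3, against 0.0115%, 7.11% and 0.968%. Depth limits Egr3 most, with 100 reads over the day 3 cultures.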
